A study of Homo sapiens with 12 samples.

Results

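Peaks of dSpCas9 binding that lay inside 5′ untranslated regions (5′ UTRs) numbered 1097 of the 18128 peaks in 4 peak lists (6.05%), and they fell in 508 genes. A peak was counted when it overlapped, on the same strand, the 5′ UTR of the Ensembl canonical transcript of a protein-coding gene (GENCODE 44) and no coding base of that transcript. Of the 1097 peaks, 999 touched the first exon and 98 lay in a later exon. The 508 genes were 14.6% of the 3484 protein-coding genes that had a peak on any exon of their canonical transcript.

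dSpCas9 is the Cas9 nuclease of Streptococcus pyogenes with both of its cutting sites inactivated. It was expressed without a nuclear localization signal and without a guide RNA in Lenti-X 293T cells, a derivative of the human embryonic kidney line HEK 293T, by transient transfection. A first construct carried a V5 tag and the other a 3xFLAG tag, and all cells were crosslinked with ultraviolet light at 400 mJ/cm2 and taken through enhanced crosslinking and immunoprecipitation (eCLIP), in which RNA attached to the pulled-down protein is sequenced. For each tag there were 3 groups of 2 replicates, 12 libraries in all: the immunoprecipitate (IP) of tagged dSpCas9, its size-matched input (RNA from the same lysate and the same part of the membrane, from 115 kDa upwards, without the pull-down), and an IP with the same antibody from cells given the empty vector pcDNA3.1(-). Each list set 1 IP group against 1 control group, and each value already combined both replicates, so that the spread between replicates and the depth of the libraries are unknown, and neither a difference between lists nor one between regions was tested. The V5 list over input and the V5 list over empty vector rest on the same IP libraries, as do the 2 FLAG lists, whereas the V5 and FLAG lists share no library. Peak lists hold no expression levels, so the identity of the cells was not checked against marker genes.

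The 5′ UTR is the part of a messenger RNA from the cap to the start codon. The small ribosomal subunit is loaded at the cap and moves along it to find the start codon, and GC-rich, folded 5′ UTRs are known to slow this scanning. Because the first exon begins at the transcription start, RNA from it is found in both the precursor and the mature message, and in many genes the 5′ UTR is split by an intron and continues in exon 2.

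The sites below are a selection from the 5′ UTR loci found in all 4 lists that carry the run marked in capitals. A locus is a run of touching or overlapping 5′ UTR peaks, taken over all lists. The capitals mark GU-loop:5nt-stem, a GU whose U is predicted to be paired with a probability below 0.7, followed by 5 bases each paired with a probability above 0.5. Sequences are genomic DNA of hg38, read 5′ to 3′ on the strand of the gene, so that T stands for U. In CDIP1, EFL1, C12orf75, SSB, NCOA4 and GMPPB the marked bases lay inside a peak of all 4 lists, and in CDKN1A inside the FLAG peaks only. In PMAIP1 they also lay inside a peak of all 4 lists, but the pairing was predicted only with the V5 peaks and their flanks, which differ from those of the FLAG peaks. MDM2, CNOT10, ERCC6, TMA16, NCK1 and RNF11 carried such a run in all 4 lists too and are not shown.
CDIP1 exon 1, chr16:4538728-4538757, minus strand: gctgccgaggcGTTCGGTcctgctgttgcg
PMAIP1, chr18:59899988-59900017, plus strand: gggatctcagaGTTTCCCgggcactcaccg
CDKN1A, chr6:36678735-36678764, plus strand: gtcagttccttGTGGAGCcggagctgggcg
EFL1, chr15:82262647-82262676, minus strand: ggaagctctcgGTGTGGGtgcgacccgaga
SSB, chr2:169798906-169798935, plus strand: tgggaggtggaGTCGTTGctgttgctgttt
GMPPB, chr3:49723891-49723920, minus strand: tcgcgttctgtGTTGTGGcggccctggatc
NCOA4, chr10:46030554-46030583, minus strand: gccgtgtctcaGTCCACCcaaggtctcctc
C12orf75, chr12:105330723-105330752, plus strand: ccccgggccgcGTCTCCCggcggtgggagg
All 8 sites are in exon 1. The G of the marked run is nucleotide 28 of the CDIP1 mRNA, 4 of PMAIP1, 33 of CDKN1A, 70 of EFL1, 47 of SSB, 43 of GMPPB, 52 of NCOA4 and 44 of C12orf75. The 5 stem bases differ from site to site, and what the sites share is the GU and the predicted pairing. Folded with a peak that carried the run, the least paired stem base had a probability of 0.71 in CDIP1, 0.67 in CDKN1A and 0.61 in EFL1. It was 0.57 in PMAIP1 and GMPPB, 0.54 in SSB, 0.52 in C12orf75 and 0.5003 in NCOA4, so that several sites lay little above the limit of 0.5.

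The 3 highest loci of the 4 lists without such a run were short, and their sequences are given with the bases covered by a 5′ UTR peak in every list in capitals.
CDIP1 exon 2, chr16:4514638-4514664, minus strand: CTCCCGGAGCCCTGCCTGTTCCCTGTC
QPRT exon 1, chr16:29679170-29679184, plus strand: aCACCAGCCCAGaca
H2AC11 exon 1, chr6:27133047-27133069, plus strand: tTGctcgtagtgagttgcgctcg
The QPRT locus covers only 5 bases of the annotated 5′ UTR and 10 bases upstream of the annotated start. In H2AC11 the V5 and the FLAG 5′ UTR peaks have only 2 bases in common. H2AC11 also had a FLAG peak over input on the start codon, which the rule leaves out and the capitals do not count.

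The V5 list over input held 449 5′ UTR peaks of 6605 peaks (6.80%, Wilson 95% interval 6.22 to 7.43), and the V5 list over empty vector held 200 of 3005 (6.66%, 5.82 to 7.60). For FLAG the numbers were 394 of 6554 over input (6.01%, 5.46 to 6.61) and 54 of 1964 over empty vector (2.75%, 2.11 to 3.57). The share was therefore similar in 3 lists and less than in those in the FLAG list over empty vector. The intervals cover counting error only. They fell in 359, 156, 312 and 42 genes in this order of lists.

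The level of a 5′ UTR peak is its log2 enrichment, the log2 of IP reads over control reads, averaged geometrically over both replicates, and no list held a value below 3.00. The median level of 5′ UTR peaks was 3.63 for V5 over input, 3.65 for V5 over empty vector, 3.69 for FLAG over input and 3.65 for FLAG over empty vector. The medians of all peaks in these lists were 3.61, 3.61, 3.63 and 3.59. A level of 4 or more was reached by 135 of the V5 5′ UTR peaks over input (30.1%), beside 27.7% of all V5 peaks over input, and by 120 of the FLAG 5′ UTR peaks (30.5%), beside 29.1% of all FLAG peaks. Peaks in 5′ UTRs were thus about as enriched as peaks elsewhere. In every list the highest 5′ UTR peak was in CDIP1.

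Merging over the lists gave 555 loci, 511 in exon 1 and 44 in a later exon. Of these, 305 were found in 1 list, 140 in 2 lists, 85 in 3 lists and 25 in all 4. The 25 loci belonged to 23 genes, since CDIP1 and CPSF1 each had a locus in exon 1 and another in exon 2. When peaks of any region were allowed to match, 36 of the 555 loci were touched by a peak in all 4 lists.

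CDIP1, PMAIP1, MDM2 and CDKN1A are known targets of the p53 transcription factor, and CDIP1, whose protein promotes cell death, had the highest locus. Its exon 1 locus (chr16:4538702-4538779, minus strand) covered nucleotides 1 to 72 of a 5′ UTR of 176 nt, that is, all of exon 1. It reached 7.18 over input and 7.20 over empty vector with V5, and 8.23 and 8.01 with FLAG. The exon 2 locus (chr16:4514630-4514664) continued from nucleotide 73 to 107 and reached 5.73, 4.05, 6.21 and 4.71 in the same order (V5 over input, V5 over empty vector, FLAG over input, FLAG over empty vector). All 4 lists were higher in exon 1 than in exon 2. Outside the 5′ UTR, the highest CDIP1 peak over input was in the coding sequence, at 4.48 with V5 and 4.62 with FLAG.

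PMAIP1, which encodes the BH3-only protein NOXA, had a locus on nucleotides 1 to 130 of 182 (chr18:59899994-59900125, plus strand). The levels were 5.33, 5.10, 4.93 and 3.70. The V5 peaks left nucleotides 15 to 45 free, whereas the FLAG peaks ran without a gap, and the highest PMAIP1 peak elsewhere, on the start codon, was lower (4.40 with V5 and 3.65 with FLAG over input).

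MDM2 encodes the ubiquitin ligase that degrades p53. Its exon 1 locus (chr12:68808179-68808471, plus strand) was the longest of the 25 and covered 293 of the 301 nt of the 5′ UTR (97.3%), with 13 peaks in the 4 lists. The levels were 5.19, 4.50, 5.01 and 3.50. Over input the FLAG peaks fell from 5.01 at nucleotides 3 to 82 to 3.79 and 3.60 downstream, whereas the V5 peak with the highest level was at nucleotides 162 to 254. MDM2 also had coding peaks, which reached 4.53 with V5 and 3.90 with FLAG over input.

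CDKN1A, which encodes the cyclin-dependent kinase inhibitor p21, had the lowest levels over input of the 4 genes. Its exon 1 locus (chr6:36678732-36678798, plus strand) reached 3.78, 3.92, 4.68 and 3.74. The V5 peaks covered the last bases of exon 1, nucleotides 78 to 85. The FLAG peaks over input ran from nucleotide 20 to 84, short of the last base of exon 1. A locus in exon 2, nucleotides 86 to 90, was found with FLAG only and reached 4.89 over input. In CDKN1A the 3′ UTR held the highest peaks over input, 5.52 with V5 and 6.40 with FLAG, so that the 5′ UTR was not its most enriched region.

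**Figure D1:**
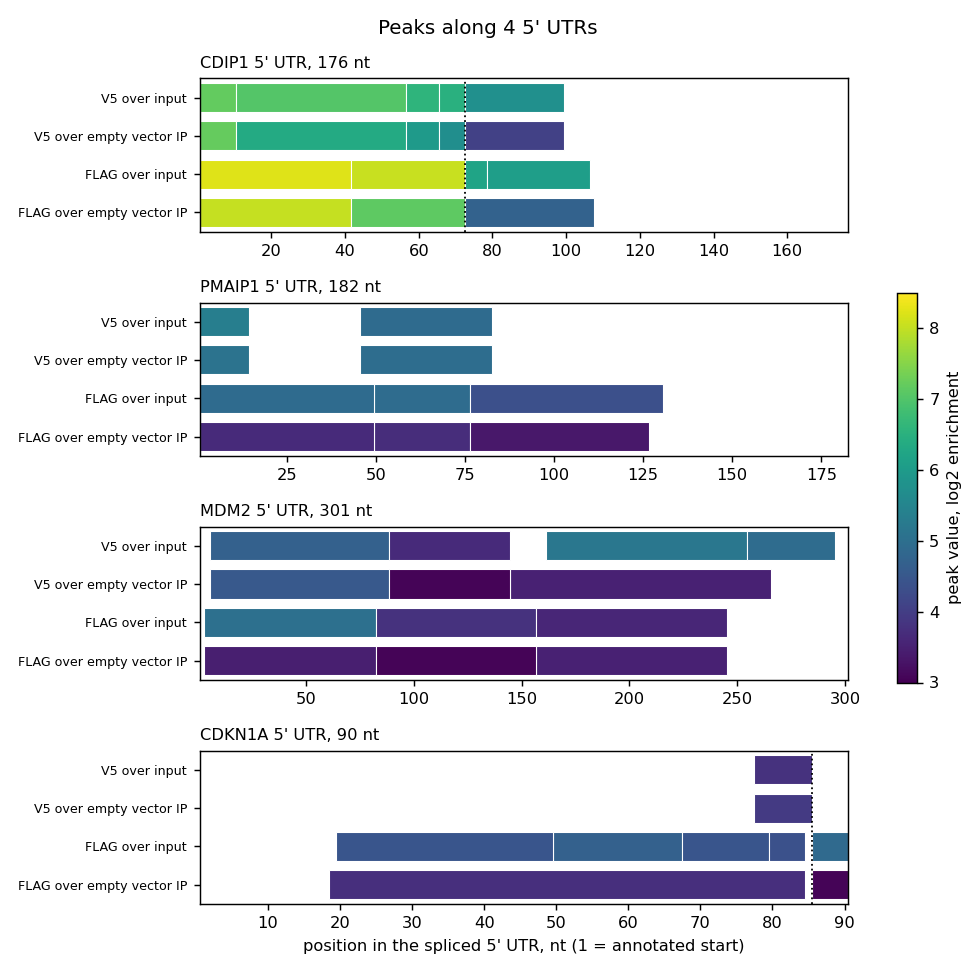
Each bar is a peak drawn along the spliced 5′ UTR of CDIP1, PMAIP1, MDM2 or CDKN1A, in nt from the annotated start, with 1 row per list and the colour giving the log2 enrichment; the dotted line is the junction of exon 1 and exon 2. The CDIP1 peaks cover all of exon 1 in every list, with levels up to 8.23, and go on across the junction, whereas V5 marks only nucleotides 78 to 85 of the CDKN1A 5′ UTR.

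EFL1, SSB, CPSF1, CNOT10 and TMA16 act on RNA or ribosomes. EFL1 encodes a GTPase needed for the last steps of large ribosomal subunit maturation. It had a locus on nucleotides 8 to 121 of 140 (chr15:82262613-82262727) with levels of 6.27, 3.59, 5.20 and 3.56, and it had no peak over input in any other region. The levels over input were higher than those over empty vector with both tags. SSB encodes the La protein, which binds the 3′ ends of new RNA polymerase III transcripts, and its locus (chr2:169798868-169798976) was likewise the only SSB peak over input, at 5.15, 5.37, 4.77 and 4.05. CPSF1, a subunit of the cleavage and polyadenylation complex, had its exon 1 locus at 4.63, 4.32, 4.51 and 3.57 and its exon 2 locus at 4.96, 4.65, 4.67 and 4.16. Most of the exon 2 locus of CPSF1, 17 of 22 bases, was in the intron before it. CNOT10, a subunit of the CCR4-NOT deadenylase complex, reached 4.01, 4.06, 4.96 and 4.06. TMA16, found with ribosomes under assembly, reached 4.14, 3.98, 4.57 and 3.60, and had no other peak over input.

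Metabolic enzymes and their regulators made up a further group. QPRT, an enzyme of NAD synthesis, reached 6.03, 4.56, 6.10 and 5.65 at the site shown above. Its coding peaks were equally high over input (6.02 with V5 and 6.06 with FLAG). ORMDL1, a regulator of sphingolipid synthesis, reached 5.96, 3.57, 5.16 and 4.02 on nucleotides 1 to 71 of 188 (chr2:189784267-189784344). GMPPB, which makes GDP-mannose, reached 4.83, 3.97, 4.36 and 3.23, and CAD, which starts pyrimidine synthesis, 3.77, 3.92, 4.11 and 3.60. NCOA4, the receptor for the breakdown of ferritin, reached 5.09, 4.70, 4.82 and 4.48 on nucleotides 12 to 98 of 112 (chr10:46030525-46030612), and its 4 values lay closer together than those of ORMDL1.

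The remaining loci in all 4 lists were in genes of varied roles. H2AC11, a histone H2A gene, was the second highest locus at 6.47, 5.70, 6.94 and 5.77. Histone genes are near-identical copies of each other, so that the reads could come from other members of the family, and H2AC11 had higher peaks further downstream (6.73 with V5 and 7.67 with FLAG over input). C12orf75 reached 5.06, 3.69, 6.24 and 4.20 (chr12:105330657-105330819) and had no other peak over input. WDR1, a cofactor of actin filament disassembly, reached 4.33, 4.24, 5.89 and 3.35 (chr4:10116706-10116831) and had higher peaks elsewhere with both tags. ERCC6, BPTF, NCK1, RNF11, RAB24 and a gene listed only as ENSG00000288053 lay between 3.38 and 4.97 over input and between 3.01 and 4.47 over empty vector.

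**Figure D2:**
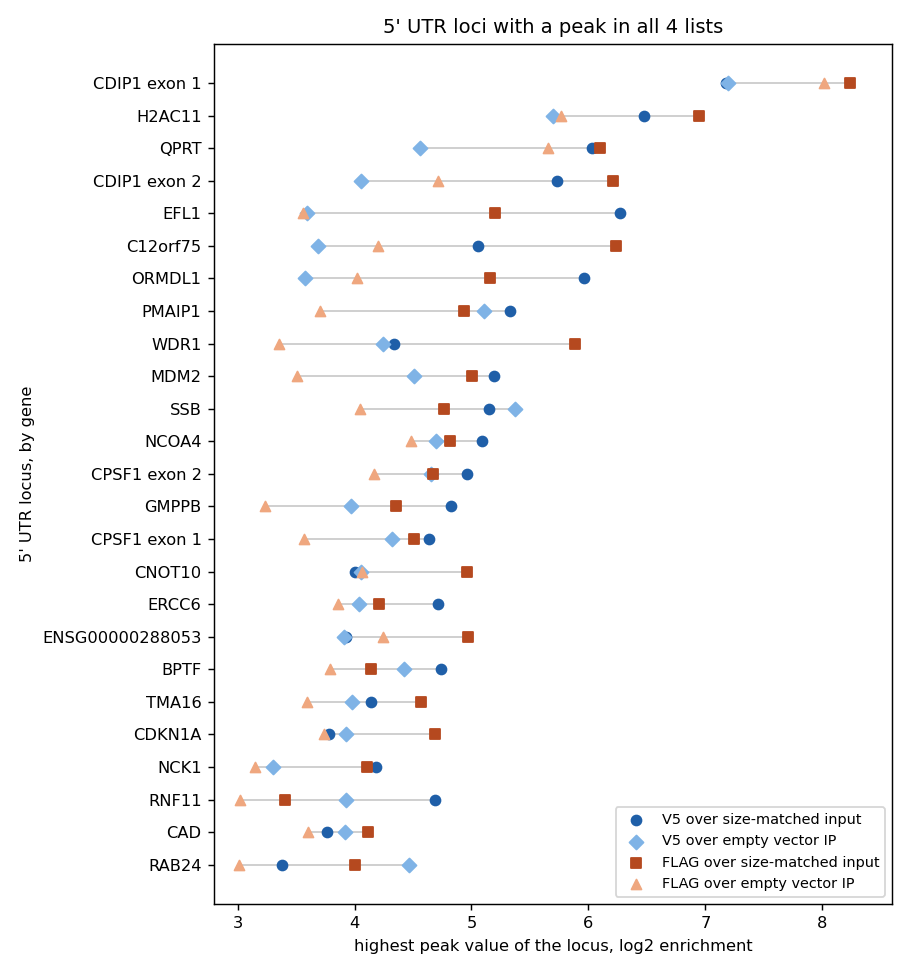
Each row is a 5′ UTR locus with a peak in all 4 lists, ordered by the mean of both levels over input, and each point is the highest log2 enrichment of the locus in a list (circle V5 over input, diamond V5 over empty vector, square FLAG over input, triangle FLAG over empty vector). CDIP1 exon 1 stands at the top with 7.18 to 8.23, and most other rows have their lowest point in the FLAG list over empty vector.

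Sites over both inputs were compared next, because these lists share no library. There were 194 such loci in 181 genes, 176 of them in exon 1, which was 49.4% of the 393 loci over the V5 input and 57.7% of the 336 loci over the FLAG input. The median level of the 194 loci was 3.88 with V5 and 3.74 with FLAG. V5 was higher in 111 loci and FLAG in 83, and the median difference, FLAG minus V5, was -0.08. The tags lay within 0.5 of each other in 119 loci and within 1 in 167. Across the 194 loci Pearson's r was 0.58 and Spearman's rho 0.44, and without both CDIP1 loci they were 0.50 and 0.42. These are descriptions over loci that passed the same floor in both lists.

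The loci with the largest differences in favour of V5 were in RPL22L1, a paralog of a large subunit ribosomal protein (5.61 with V5 and 3.16 with FLAG), SPTY2D1 (5.53 and 3.33) and SNRPD1, a core protein of spliceosomal snRNPs (6.80 and 4.61). The V5 list over empty vector also held these loci, at 4.05, 3.52 and 4.83, and the FLAG list over empty vector did not. The largest differences in favour of FLAG were in SLC39A7, a zinc transporter (3.32 with V5 and 5.17 with FLAG), NASP, a histone chaperone (3.22 and 4.84), and exon 2 of DPP9, a peptidase (3.03 and 4.60). With no value per replicate, whether any of these 6 differences exceeds the replicate spread was not tested.

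**Figure D3:**
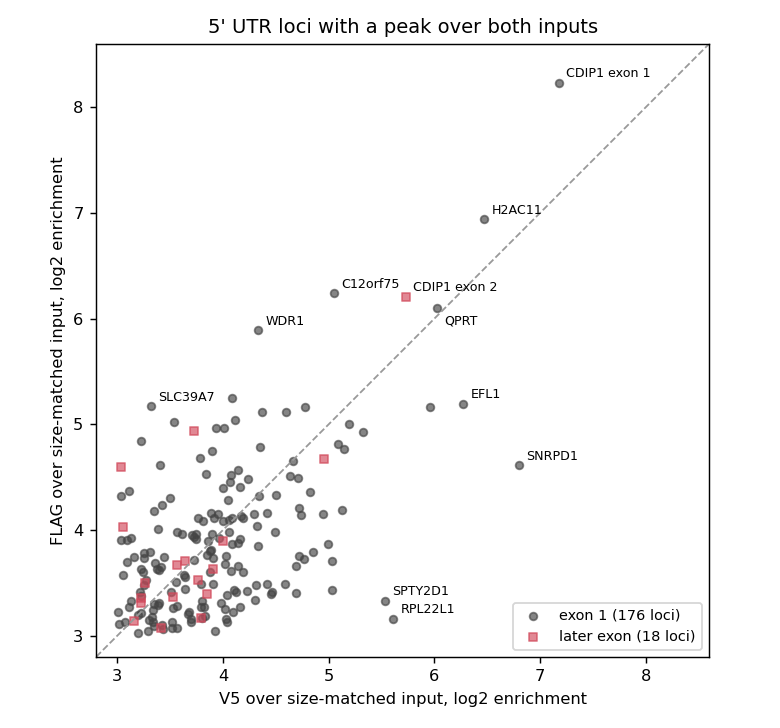
Each point is a 5′ UTR locus with a peak over both inputs, with its highest log2 enrichment with V5 on the x axis and with FLAG on the y axis; grey circles are the 176 exon 1 loci, red squares the 18 later-exon loci, and the dashed line marks equal values. CDIP1 exon 1 is the highest with both tags, and RPL22L1, SPTY2D1 and SNRPD1 lie furthest below the line.

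Read by peak, 260 of the 449 V5 5′ UTR peaks over input overlapped a FLAG peak over input (57.9%), beside 54.0% of all V5 peaks. Of the 394 FLAG 5′ UTR peaks, 259 overlapped a V5 peak over input (65.7%), beside 55.8% of all FLAG peaks. The counting intervals were 60.9 to 70.3% for FLAG and 53.3 to 62.4% for V5. Touching peaks of the same site were counted separately, so these intervals are too narrow to judge a difference from all peaks, which was not tested.

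Several high loci were found with 1 tag only, and they are named here after their values were seen. With V5 over input alone, the highest were BLTP3A (4.85), PIGG (4.75) and MGME1 (4.74). With FLAG over input alone, FAM200A (5.16) had the highest, and there was no V5 peak of any region at that place. TRAF4 (4.68 with FLAG) was touched by V5 peaks, which reached into the coding sequence and so were not counted as 5′ UTR peaks. For a locus with no peak in a list the level there is unknown, because peaks had to pass limits on enrichment, p-value and reproducibility to be listed.

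The empty vector IP holds the RNA that comes down with the antibody when no dSpCas9 is present, and a peak over it is a place where the dSpCas9 IP had more reads. Of the V5 5′ UTR peaks over input, 179 of 449 also overlapped a peak over the V5 empty vector IP (39.9%, 35.4 to 44.5), beside 36.0% of all V5 peaks. Of the FLAG 5′ UTR peaks, 61 of 394 also overlapped a peak over the FLAG empty vector IP (15.5%, 12.2 to 19.4), beside 27.9% of all FLAG peaks. The shares for V5 were 39.7% of coding peaks and 31.5% of 3′ UTR peaks. With FLAG they were 26.6% of coding peaks and 32.7% of 3′ UTR peaks, and start codon peaks, which overlap both 5′ UTR and coding bases, had 17.0%. FLAG 5′ UTR and start codon peaks were therefore the regions with the smallest share, whereas with V5 the 5′ UTR share was near that of coding peaks.

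**Figure D4:**
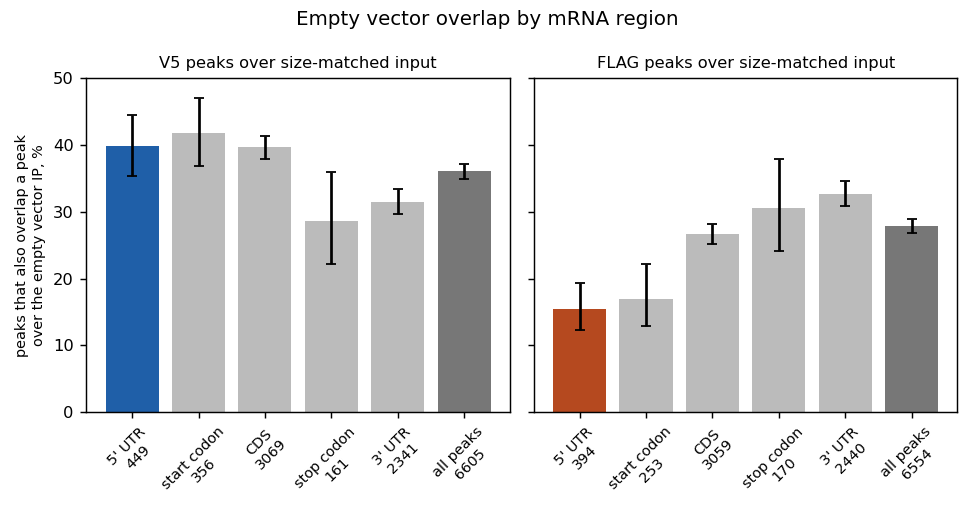
Bars give, for V5 (left) and FLAG (right), the percent of peaks over size-matched input in each region that also overlap a peak of the same tag over the empty vector IP, with Wilson 95% intervals for counting error and the number of peaks under each bar. The 5′ UTR bar is 39.9% with V5 and 15.5% with FLAG, and the darker grey bars are all peaks of the list (36.0% and 27.9%).

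The peaks that were also over the empty vector had higher levels over input. With V5 the median was 4.03 for these and 3.42 for the others, and with FLAG it was 4.49 and 3.58. Both lists of a tag rest on the same IP libraries and have a floor of 3.00. A peak with more IP reads can pass in both more easily, so no meaning is drawn from this difference. Of the 194 loci over both inputs, 102 had a V5 peak over empty vector (52.6%) and 32 had a FLAG peak over empty vector (16.5%). The 85 loci over both inputs and neither empty vector had median levels of 3.53 with V5 and 3.56 with FLAG. The 77 loci in every list but FLAG over empty vector had medians of 4.03 and 3.74, and the 25 loci in all lists had 4.83 and 4.82. The shared libraries and floor bear on these medians too. The level of a locus is that of its highest peak, so a locus with more peaks has more chances of a high value. Neither was corrected for. Of the 200 V5 5′ UTR peaks over empty vector, 38 overlapped a FLAG peak over empty vector (19.0%; 30.6% of all such V5 peaks), and of the 54 FLAG 5′ UTR peaks 41 overlapped a V5 peak over empty vector (75.9%; 50.4% of all).

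First exons held 411 of the V5 5′ UTR peaks over input (91.5%), 182 of those over empty vector (91.0%), 358 of the FLAG peaks over input (90.9%) and 48 of those over empty vector (88.9%). Per kilobase of annotated 5′ UTR in the genes with a peak in the list, V5 over input had 1.02 peaks in exon 1 and 0.447 in later exons, and FLAG over input had 0.860 and 0.416. The same measure was 0.595 for coding sequence and 0.397 for 3′ UTRs with V5, and 0.581 and 0.411 with FLAG. The first exon thus had the most peaks per kilobase over both inputs and in the V5 list over empty vector (0.928 in exon 1, 0.668 in coding sequence). The FLAG list over empty vector differed: it had 0.302 peaks per kilobase in exon 1 and 0.448 in coding sequence. A peak that lies partly upstream of the start or in an intron still counts in full, which raises the value most for short regions. Touching peaks were counted separately. Neither was corrected for, so the densities of short and long regions are not strictly comparable.

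Exon 1 peaks over input were somewhat higher than later-exon peaks, with medians of 3.64 and 3.46 with V5 and 3.71 and 3.39 with FLAG, but the 95% intervals of the medians overlapped for both tags (3.53 to 3.75 and 3.27 to 3.75 with V5). They were also longer, with medians of 84 and 43.5 nt with V5 and 80.5 and 30 nt with FLAG.

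The midpoint of exon 1 peaks, measured on the part of the peak that lies on the 5′ UTR, had its median 68 nt from the annotated start with V5 over input, 68.5 nt with V5 over empty vector, 68 nt with FLAG over input and 47.5 nt with FLAG over empty vector. Of the V5 exon 1 peaks over input, 142 had their midpoint in the first 50 nt (34.5%) and 69.1% in the first 100 nt. For FLAG over input the shares were 32.1% and 69.8%. Only 15 of 411 V5 midpoints and 7 of 358 FLAG midpoints were in the first 10 nt. A peak with its first base at the cap needs some length before its midpoint, so that few midpoints can fall there. Relative to the whole 5′ UTR, the median midpoint was at 39.3% of its length with V5 and 42.2% with FLAG.

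**Figure D5:**
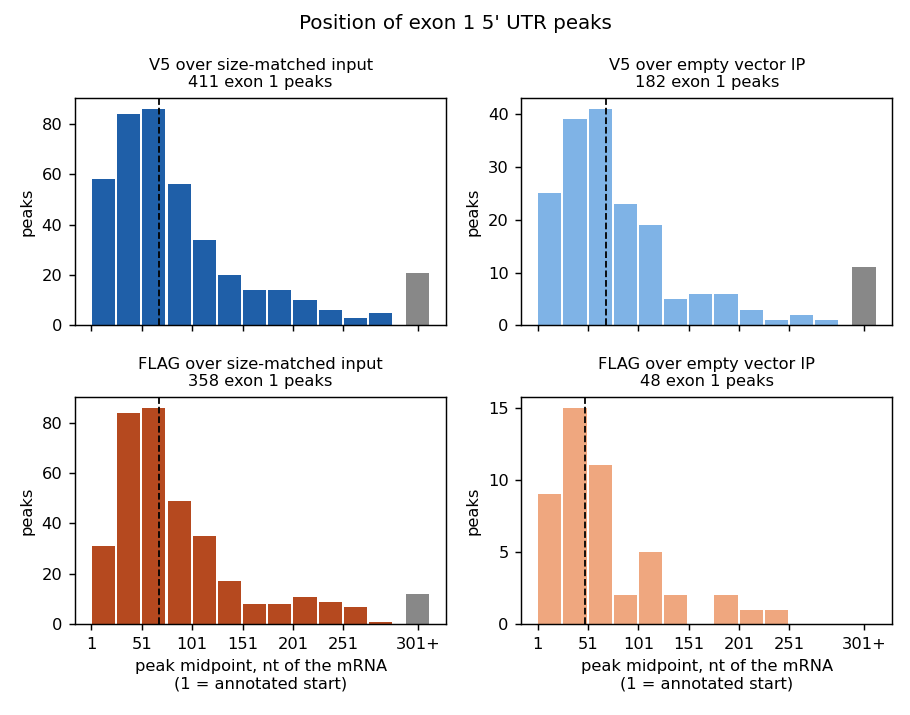
Histograms count exon 1 5′ UTR peaks by the position of their midpoint in nt from the annotated start, in bins of 25 nt, with peaks from nucleotide 301 on in the grey bar and the median as a dashed line; each panel is a list. In the 3 larger lists the median is 68 or 68.5 nt, and in the FLAG list over empty vector it is 47.5 nt.

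Some peaks began before the annotated start: 93 of the V5 exon 1 peaks over input (22.6%), by a median of 10 nt, and 64 of the FLAG exon 1 peaks (17.9%), also by a median of 10 nt. With FLAG over empty vector it was 20 of 48 (41.7%). Distances therefore depend on the start of the canonical transcript, which can differ from the start used in these cells. Examples with all 4 lists upstream of the start were QPRT and C12orf75, in which the peaks began up to 10 and 34 nt before it.

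At the other end of exon 1, 61 of 406 V5 peaks over input (15.0%) and 53 of 355 FLAG peaks (14.9%) in genes with a following exon reached its last base. Of these, 28 and 33 went on into the intron. Later-exon peaks often covered the first base of their exon. These were 24 of 38 with V5 over input (63.2%) and 22 of 36 with FLAG over input (61.1%). Some of them, such as those of CPSF1, began in the intron before it, and the number that did was not counted. Nearly all later-exon peaks over input were in exon 2, 37 of the V5 and 33 of the FLAG peaks. On the 5′ UTR, with all lists pooled, 21 of the 44 later-exon loci began where a locus of the exon before ended, in 20 genes. Such a pair was continuous in the spliced mRNA. In 18 of the 21 pairs the loci held at most 2 intron bases together. Examples in addition to CDIP1, CPSF1 and CDKN1A were RPLP0 (nucleotides 29 and 30), RPS12 (45 and 46) and RPS7 (91 and 92), in which both loci came from the same lists. In CDKN1A the last base of exon 1 was covered with V5 only and the first base of exon 2 with FLAG only.

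By the mean of both levels over input, exon 2 of RPSA and of DPP9 were among the 5 highest later-exon loci, with CDIP1 and CPSF1. RPSA, a small subunit ribosomal protein, reached 3.73 with V5 and 4.93 with FLAG (chr3:39407620-39407640, nucleotides 46 to 65 of 78).

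The longest stretches of covered 5′ UTR, over all lists, were in RNF11, a ubiquitin ligase (367 of 484 nt, in 3 loci), TATDN2 (331 of 615 nt) and CAND1, which regulates cullin ubiquitin ligases (326 of 360 nt). In CAND1 a single locus spanned nucleotides 4 to 329 (chr12:67269361-67269686), at 4.07 with V5 and 3.61 with FLAG over input and 3.66 with V5 over empty vector. Of the 3 genes, RNF11 alone had a FLAG peak over empty vector, at 3.02 on nucleotides 149 to 233.

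The genes with a 5′ UTR peak had long 5′ UTRs, with a median of 193 nt (quartiles 122 and 311.5 nt), beside 129 nt for the 2991 genes with peaks but none in the 5′ UTR. A longer region offers more places for a peak, and the counts were not corrected for it. The 5′ UTR was the only region with a listed peak in 151 of 359 genes with V5 over input (42.1%). With FLAG over input it was so in 133 of 312 genes (42.6%). Of the genes with a listed peak elsewhere too, the highest peak was in the 5′ UTR in 81 of 208 (38.9%) and in 70 of 179 (39.1%). The matching shares for coding and 3′ UTR peaks were not computed, so none of these is read as particular to the 5′ UTR.

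In sequence, 5′ UTR peaks had a median GC content of 72.6% with V5 and 72.8% with FLAG over input, whereas coding peaks had 60.0% and 58.3% and 3′ UTR peaks 58.3% and 57.3%. Windows of 78 nt laid end to end outside all peaks over the 5′ UTRs of genes with a peak in any region had 71.8% (5415 windows). The GC content of all 5′ UTR peaks together was thus close to that of these windows, most of whose genes had no 5′ UTR peak. In later exons the peaks had more GC than the windows. Exon 1 peaks had 73.3% and later-exon peaks 61.6% with V5, and the windows had 74.4% and 52.6%.

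GU-loop:5nt-stem was present in 192 of the V5 5′ UTR peaks over input (42.8%, 38.3 to 47.4) and 153 of the FLAG peaks (38.8%, 34.2 to 43.7). The windows outside peaks had 25.4%. Among coding peaks the share was 33.4% and 31.0%, and among 3′ UTR peaks 49.9% and 48.5%. The share varied with length. Among peaks of 50 to 99 nt it was 43.2% and 41.3% in 5′ UTRs, 41.7% and 39.7% in coding sequence and 48.9% and 47.2% in 3′ UTRs, so that at this length 5′ UTR and coding peaks were alike. With V5 over input the median level was 3.62 for peaks with the run and 3.63 for those without it, and with FLAG over input it was 3.75 and 3.66. Whether they differ was not tested. Of the 25 loci in all 4 lists, 15 had the run in a peak of at least 1 list. Such a locus pools at least 4 peaks, so this count is not comparable with the shares of single peaks. The share over all loci was not computed.

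ATG was in 22.0% of V5 and 21.8% of FLAG 5′ UTR peaks over input. It was in 23.7% of the windows in exon 1, where most peaks lie, and in 53.6% of those in later exons. CTTTT was in 2.67% of V5 and 2.54% of FLAG peaks, in 4.87% of exon 1 windows and in 12.5% of later-exon windows. Peaks shorter than 78 nt offer less room for a match than the windows, and this was not corrected for. The ATG count covers every frame and only the strand of the gene, and no ATG at a peak was taken for a start codon in use.

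Cytoplasmic ribosomal protein genes had a larger share than most lists. Of the 52 with an exonic peak, 16 had a 5′ UTR peak (30.8%), beside 14.6% of all genes. The list was taken by name and includes paralogs such as RPL22L1. By list the genes numbered 14 with V5 over input, 8 with V5 over empty vector, 8 with FLAG over input and 0 with FLAG over empty vector. Ribosomal protein mRNAs begin with a C followed by a run of pyrimidines (the 5′ TOP), through which their translation responds to growth signals. The first 20 bases of the annotated mRNAs of 5 of them are shown because the peaks of RPL22L1, RPL14, RPLP0 and RPL3 begin there; capitals mark the run of pyrimidines, and in RPS12 the peaks over both inputs begin inside it, at nucleotide 5, whereas the exon 1 peak over the V5 empty vector covers nucleotides 43 to 45.
RPL22L1, chr3:170870176-170870195, minus strand: CTCTCTgctctcgcggccga
RPL14, chr3:40457339-40457358, plus strand: CTTCTCgcctaacgccgcca
RPLP0, chr12:120201092-120201111, minus strand: CCTTCTCTCgccaggcgtcc
RPL3, chr22:39319604-39319623, minus strand: CTCTaccggcgggatttgat
RPS12, chr6:132814569-132814588, plus strand: CTCTTTCCCTgccgccgccg
RPL22L1 covered nucleotides 1 to 27 of a 5′ UTR of 28 nt at 5.61 with V5 and 3.16 with FLAG over input. RPL14 covered nucleotides 1 to 25 of 133 at 4.18 and 4.13, and 3.94 with V5 over empty vector. RPLP0, the stalk protein, reached 4.15, 4.59 and 3.66 (V5 over input, V5 over empty vector, FLAG over input) in exon 1 and 3.85, 4.39 and 3.39 in exon 2. RPL3 was near the floor with V5 (3.10) and at 3.91 with FLAG over input. Ribosomal protein genes have many processed pseudogenes, so that some of their reads may have been lost or shared. Over all genes, a start of C and at least 4 pyrimidines was found in 47 of the 508 genes with a 5′ UTR peak (9.25%), 7.18% of genes with any peak and 4.74% of all coding genes. The ribosomal protein genes are included, and the shares without them were not computed. RPL3, with 4 pyrimidines counted from its C, falls short of this start.

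The p53 pathway list had 8 of its 20 genes with an exonic peak among those with a 5′ UTR peak (40.0%), of which 8 were found with V5 over input, 7 with V5 over empty vector, 6 with FLAG over input and 3 with FLAG over empty vector. Besides CDIP1, MDM2 and CDKN1A these included ZMAT3, an RNA-binding zinc finger protein, at 4.29 with V5 and 4.15 with FLAG over input and 3.74 with V5 over empty vector. PMAIP1 was not on the list. The list holds CDIP1 and CDKN1A, already reported as dSpCas9 targets from these same data, so its share is partly set by the choice of genes. The other lists lay on both sides of the 14.6% of all genes: translation factors and aminoacyl-tRNA synthetases had 6 of 43 (14.0%), zinc finger genes 11 of 73 (15.1%), solute carriers 10 of 53 (18.9%), histones 3 of 34 (8.82%) and mitochondrial proteins 5 of 65 (7.69%). Named members of these were LARS1, the leucyl-tRNA synthetase, at 3.84 with V5 and 4.53 with FLAG over input, AARS1, the alanyl-tRNA synthetase, at 3.40 and 4.62, SLC25A25, a mitochondrial carrier, at 5.03 and 3.71, SLC19A1, the reduced folate carrier, at 3.82 and 4.08, and ZBTB24 at 4.78 and 5.16. The lists are small and were chosen with earlier results of these data known, and the shares are descriptions. Genes differ in 5′ UTR length and in expression, and the part of either in these shares was not tested.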

How the data were processed

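The 12 eCLIP libraries were grouped by tag and by IP, size-matched input or empty vector IP, as the labels name them, with 2 replicates in each of 6 groups. Reads were mapped by the authors to hg38, and peaks came from their eCLIP pipeline (0.4.0), which kept those reproducible between replicates. The submitters' processing notes name cutadapt 1.14, UMI-tools 1.0.0, STAR 2.4.0i and SAMtools 1.6, and the version of the peak caller and the annotation are not given in the sources used here. For each peak the authors deposited the log2 enrichment of IP over control, as a geometric mean over both replicates, and the −log10 of its p-value, which has a ceiling of 400 and a lowest value of 3.01. The study describes them as biological replicates, each a plate of cells, and no library depth can be read from the lists.

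Here peaks were assigned with GENCODE 44 on hg38 (Python 3.11.15), with an overlap of at least 1 nt. A peak in 2 genes was given to the gene with the larger overlap (16 peaks). Of the 1097 peaks, 792 lay wholly on the 5′ UTR, and 27 also touched an exon of another gene. Pairing was predicted with ViennaRNA 2.7.2 (window and span 70 nt) on genomic sequence with 50 nt on each side. Intervals are Wilson 95% intervals, and those of medians are from order statistics. The assignment was tested on simulated peaks at known places. Members, gene lists and alternatives were chosen with earlier results of these data known.

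Named genes were, by a fixed rule, those of loci in all 4 lists (values for the 12 highest by mean over both inputs, the rest more briefly), the 5 highest exon 1 and later-exon loci, the 3 highest over empty vector, the 3 largest differences between tags in each direction, the 3 longest covered 5′ UTRs and up to 4 members per gene list. Some results that the rule would name are not reported here.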

Additional observations from a re-analysis of the deposited data

How the results depend on the processing

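No paired analysis was possible because each deposited value combines both replicates, and leaving out a replicate could not be run for the same reason. Of 85 alternative values for 20 results, 68 stayed within the counting interval of the value reported (or, for counts, within 1.5 times) and 17 moved. With peaks of log2 enrichment of at least 4 alone, the counts of 5′ UTR peaks fell by construction to 135 (V5 over input), 57 (V5 over empty vector), 120 (FLAG over input) and 18 (FLAG over empty vector), and 8 loci were found in all 4 lists. In these peaks 97.8% of the V5 peaks over input were in exon 1. In the other lists the exon 1 share stayed within its interval. It was 90.8% with FLAG over input, 93.0% with V5 over empty vector and 88.9% with FLAG over empty vector. Over input, the median distance from the start was 57 nt with V5 and 55 nt with FLAG. The share over the empty vector too was 69.6% with V5 and 40.8% with FLAG. With touching peaks merged, that share was 35.4% with V5 and 11.3% with FLAG, and the share with GU-loop:5nt-stem was 48.6% and 46.9%, over longer peaks. Pairing thresholds of 0.6 lowered the latter to 18.3% with V5 and 17.0% with FLAG, and folding the spliced mRNA gave 36.7% with V5. The cause of the last was not tested. The FLAG share over empty vector was below that of V5 under each of these settings. Depth limits what a missing peak says: below a log2 enrichment of 3.00 no list has a value.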

Other observations

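Some values belong to no comparison above. Of the 555 loci, 20 were found over the V5 empty vector and over neither input with any 5′ UTR peak, at a median of 3.36. The highest of these, named after their values were seen, were in CUL5 (4.04), SPATS2 (3.78) and CREB3L2 (3.78), at which no list had a peak over input of any region. The FLAG list over empty vector had no locus of its own: each of its loci was also over an input. In 11 loci, 10 of them in exon 1, FLAG peaks were over both FLAG controls and no V5 list had a 5′ UTR peak, and their median level was 4.38 over input and 3.36 over empty vector. NDUFB7, a subunit of respiratory complex I, was in this group with 5.61 and 3.64. ATP5F1A, a subunit of ATP synthase, had the opposite pattern, with 6.71 and 4.51 over the V5 controls and no FLAG 5′ UTR peak. RPS28 was also over both V5 controls alone, at 5.21 and 4.73, on nucleotides 23 to 30 of a 5′ UTR of 35 nt.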
